A study of Mus musculus with 9 samples.

Results

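The genes described here are the older numbered zinc finger genes of the mouse, Zfp1 to Zfp599, in livers that lack 1 or more HP1 proteins. They were chosen by symbol and level: the symbol is Zfp followed only by a number, up to Zfp599, and the mean normalised read count over the 9 libraries is at least 10. Of 193 such entries in the table, 23 lay under that mean and 170 were kept as members, out of 22701 genes in all and 13845 with a mean of at least 10. The members carry 169 symbols, because Zfp319 has 2 entries. Livers came from 5-week-old mice on a background given as C57BL/6, 129svPas. HP1ag_KO livers (3 mice) lacked HP1α throughout and HP1γ in the liver (HP1a-/-, HP1gliver-/-). The HP1ab_KO liver (1 mouse) lacked HP1α throughout and HP1β in the liver (HP1a-/-, HP1bliver-/-). HP1a_KO livers (2 mice) lacked HP1α alone (HP1a-/-), and WT livers (3 mice) served as controls. Every knockout thus carries the HP1α deletion, and the labels give neither the driver of the liver deletions nor sex or litter.

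C2H2 zinc fingers are small zinc-binding folds that read DNA or RNA, and many members carry long arrays of them. Part of the family also carries a KRAB box near the protein's start, which binds the corepressor KAP1 (Trim28). KAP1 brings in the histone methyltransferase SETDB1 and HP1 proteins, which bind the H3K9 methylation that SETDB1 writes, and many KRAB zinc finger genes lie in clusters that are themselves marked in this way. The HP1 genes are Cbx5 (HP1α), Cbx1 (HP1β) and Cbx3 (HP1γ). The comparisons ask how liver transcripts of these genes differ when 1 or more HP1 proteins are missing, in a series whose title concerns tumour suppression by HP1 in the liver.

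Libraries held 16266423 to 36161177 reads in genes, the lowest in HP1a_KO replicate 1. Cbx3 had 349.7 ± 27.5 normalised reads in HP1ag_KO livers, against 605 ± 59.7 in WT livers (mean ± SD, n = 3 each). Cbx1 had 217 in the HP1ab_KO liver, against 917 ± 146 in WT livers. Cbx5 had 743 ± 75.8 in HP1ag_KO livers, 663 in the HP1ab_KO liver and 538 ± 53.3 in HP1a_KO livers (n = 2), against 1235 ± 279 in WT livers. The targeted genes were lower where the labels say so but were not at 0, and which exons were removed was not analysed here. Hepatocyte markers were abundant in every library. Markers of other cells moved with some groups, and their part in the results was not tested. The summed erythroid markers (5 of 7 in the table) were 2736 to 4025 in HP1ag_KO livers, against 4713 to 7220 in WT livers. Kupffer cell markers (7 of 8) summed to 14741 to 17204 in HP1a_KO livers, against 9908 to 11952 in WT livers. Stellate cell markers (8 of 8) summed to 19233 to 20705 in HP1a_KO livers, against 12077 to 17839.7 in WT livers. Neutrophil markers (7 of 7) summed to 21.3 to 136 in HP1ag_KO livers, 121 in the HP1ab_KO liver and 200.4 to 226 in HP1a_KO livers, against 31.1 to 46.7 in WT livers. Of these, Elane and Mpo were at 0 in at least 1 HP1ag_KO, the HP1ab_KO and at least 1 WT library. In whole liver, fewer cells of a type and less RNA per cell cannot be told apart. The labels do not name separate litters, so p-values measure only the spread between these samples.

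The promoters of the 3 KRAB members that DESeq2 called in HP1ag_KO against WT are shown first, as the 200 bases before each annotated start (RefSeq, GRCm38.p6, 5′ to 3′ on the gene's strand). Zfp445 lies on the minus strand of chromosome 9, and its stretch is chr9:122866007-122866206. Zfp433 and Zfp84 lie on plus strands, at chr10:81704625-81704824 and chr7:29768352-29768551. Capitals mark a match to the ETS motif CCGGAAG, read here on the other strand.
Zfp445: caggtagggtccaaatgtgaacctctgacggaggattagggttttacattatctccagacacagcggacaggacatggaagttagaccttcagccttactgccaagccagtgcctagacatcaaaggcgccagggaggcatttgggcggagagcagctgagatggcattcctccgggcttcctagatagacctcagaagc
Zfp433: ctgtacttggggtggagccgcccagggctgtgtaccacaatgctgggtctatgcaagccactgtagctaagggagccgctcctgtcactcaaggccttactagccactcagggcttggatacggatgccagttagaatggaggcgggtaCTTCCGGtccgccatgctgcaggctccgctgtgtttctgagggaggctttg
Zfp84: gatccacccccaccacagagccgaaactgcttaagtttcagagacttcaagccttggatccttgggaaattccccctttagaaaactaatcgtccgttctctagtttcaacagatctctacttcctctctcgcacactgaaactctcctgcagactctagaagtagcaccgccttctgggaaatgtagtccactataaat
The match in Zfp433 starts 51 bases before the start site, and the other 2 stretches hold none. RefSeq promoters of 300 bases (250 before to 50 after the start) were matched to 133 member symbols, 74 of them KRAB. CCGGAAG, searched on both strands, was found in 32.4% of the KRAB promoters and 23.7% of the other members' promoters, against 9.12% of all 27025 promoters. The Sp1 motif GGGCGG was in 36.5% of KRAB promoters and 59.3% of the others, against 35.9% of all. The TATA box TATAAA was in 6.76% and 6.78%, against 14.2% of all. The YY1 motif AANATGGC was in 9.46% and 16.9%, against 6.23% of all, and the cyclic AMP element TGACGTCA in 6.76% and 5.08%, against 1.88%. The E box CACGTG was in 1.35% and 8.47%, against 7.24%. Motifs could overlap, and a match describes letters in a window, not a bound site. The median number of CG pairs per promoter was 12 in KRAB members and 19 in the others, against 7 in all promoters. KRAB members with CCGGAAG (24) had a median log2 difference of 0.34 in HP1ag_KO against WT, and those without it in the window (50) had 0.24. The order was the other way in HP1ab_KO against WT, at 0.19 with it and 0.23 without. In HP1a_KO against WT the medians were -0.10 with it and -0.08 without, and in HP1ag_KO against HP1a_KO they were 0.35 and 0.28. None of these differences was tested.

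A search of translated GENCODE transcripts with a profile of the KRAB box split the members into 88 with a KRAB box found and 82 without. Members with no translated transcript could not be searched and were counted as without, among them Zfp125 and the second Zfp319 entry. A box beyond the first 250 residues was not counted either. Without KRAB, or without a KRAB box, means here that none was found in that stretch. KRAB members carried a median of 12 fingers (3 to 22), against 8 (0 to 37) in the others. Their median normalised read count was 122 (11.5 to 2219), against 266 (10.2 to 3459) in members without KRAB. Per kilobase of exon, the median value was 23.0 in KRAB members and 49.0 in the others. The highest members per kilobase were Zfp259, at 453, an escort of the translation factor eEF1A also known as Zpr1, then Zfp91 (344), Zfp207 (337), Zfp110 (319), Zfp281 (304) and Zfp445 (299.5). By read count the order was Zfp91 (3459), Zfp106 (2905), Zfp207 (2245), Zfp445 (2219), Zfp148 (1974) and Zfp259 (1625). Zfp110 and Zfp445 were the only KRAB members in either list. Chromosome 7 holds 43 members, chromosome 17 holds 18, chromosome 13 holds 17 and chromosome 9 holds 11. Another gene overlaps 51 members on the other strand, 20 of them KRAB.

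At the lower edge of the choice, Zfp423, Zfp599 and Zfp473 had means of 10.2, 11.5 and 12.2, and Zfp57, Zfp382 and Zfp566 lay just outside with 9.998, 9.91 and 9.08. Over the libraries outside HP1ag_KO, Zfp457 and Zfp473 would have a mean under 10, and over those outside HP1a_KO, Zfp423 would. Zfp457 had 7.29, 39.3 and 33.1 in HP1ag_KO livers and 1.83 and 5.16 in HP1a_KO livers, against 1.78, 21.9 and 8.43 in WT livers. As a ratio of value + 1 between the highest and lowest library, Zfp457 varied 14.5-fold, the widest of the 170, and Zfp511 1.19-fold, the narrowest. The members together took 0.188 to 0.230% of the normalised reads of a library.

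In HP1ag_KO livers against WT livers, KRAB members were mostly higher, by small amounts. Of 88 KRAB members, 74 (84.1%) were higher, with a median log2 difference of 0.24, or 1.18-fold. The 88 include Zfp457 and Zfp473, which reach the mean required of a member only with the HP1ag_KO libraries. The count of 74 was not taken without them. For KRAB members with a mean of at least 50, which leaves both out, the median was 0.23. Of the 82 members without KRAB, 53 were higher, with a median of 0.07, which was 0.12 without HP1ag_KO replicate 3 and 0.13 after scaling to equal totals. Over all 13845 genes tested 47.9% were higher, and the median was -0.01. All differences were taken between values on a log2(value + 1) scale, so those of weakly read members are understated.

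Averaged over the KRAB members and centred on each gene's mean, the 3 HP1ag_KO libraries lay at 0.10, 0.20 and 0.20 on the log2 scale, against -0.16, -0.06 and -0.11 in WT livers. The groups did not overlap. Members without KRAB lay at 0.04, 0.09 and 0.03 in HP1ag_KO livers, against -0.07, -0.05 and -0.03 in WT livers. For all genes tested the libraries lay between -0.02 and 0.02.

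**Figure D1:**
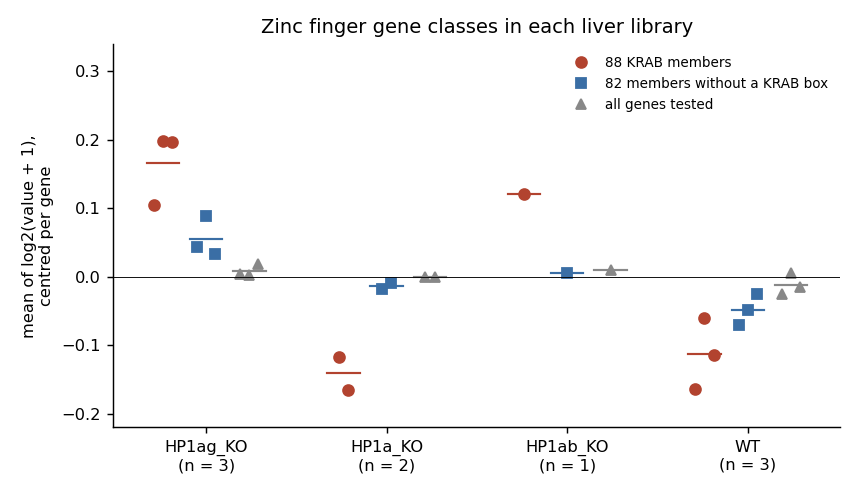
Mean of log2(value + 1) over 88 KRAB members, 82 members without a KRAB box and all genes tested, centred per gene (y axis), for each library of HP1ag_KO, HP1a_KO, HP1ab_KO and WT livers (x axis). Points are libraries and lines group means. KRAB members lie at 0.10 to 0.20 in HP1ag_KO livers and 0.12 in the HP1ab_KO liver, and below 0 in every HP1a_KO and WT library.

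Single members did not pass the test. With limma, on all genes and at a Benjamini-Hochberg adjusted p under 0.05, 0 members were called in HP1ag_KO against WT, where 0% of all genes were called, and edgeR also called 0 members and 0% of genes. DESeq2 on the recovered reads called 4 members (Zfp445, Zfp433, Zfp84 and Zfp125), where it called 0.716% of all genes. At an unadjusted p under 0.05 from limma, 19 members were higher and 1 lower, or 11.2% and 0.588% of members, against 3.84% and 3.74% of all genes. Of the 19, 11 were KRAB members, or 12.5% of the KRAB members, and 8 were not, or 9.76% of the members without KRAB. In 30 members every HP1ag_KO library lay above every WT library, and in 3 every one lay below. That is 17.6% and 1.76% of members, against 6.46% and 7.05% of all genes. Of the 30, 19 were KRAB members, or 21.6% of the KRAB members, and 11 were not, or 13.4% of the members without KRAB. Those 19 KRAB members include Zfp473, which reaches the mean required of a member only with the HP1ag_KO libraries.

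Zfp445, a KRAB protein that keeps imprinted regions methylated, had 2725, 3474 and 2884 normalised reads in HP1ag_KO livers, against 1611, 1610.4 and 1643 in WT livers. Its log2 difference was 0.89 ± 0.12, given here and elsewhere with its standard error (limma adjusted p = 0.146, DESeq2 adjusted p = 1.58e-07). All 3 HP1ag_KO libraries lay well above the WT libraries, which were close to each other. Zfp433, a KRAB gene on chromosome 10, had 307, 312 and 269 in HP1ag_KO livers, against 156, 181 and 159 in WT livers. Its difference was 0.84 ± 0.13 (limma adjusted p = 0.198, DESeq2 adjusted p = 2.35e-04), and a gene on the other strand (Gm47529) overlaps it. Zfp84, a KRAB gene on chromosome 7, had 463, 461 and 398 in HP1ag_KO livers, against 278, 254 and 324 in WT livers. The difference was 0.63 ± 0.13 (limma adjusted p = 0.382, DESeq2 adjusted p = 0.0173), again with no overlap of the groups.

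Zfp334, also a KRAB gene, had 146, 135 and 107 in HP1ag_KO livers, against 66.7, 68.6 and 83.3 in WT livers, a difference of 0.81 ± 0.19 (limma adjusted p = 0.43). Zfp110, a KRAB gene whose protein is known as a partner of the neurotrophin receptor, had 1719.7, 1423 and 1410.0 against 883, 1278 and 1229 in WT livers, a difference of 0.44 ± 0.19 (limma adjusted p = 0.651). Both had every HP1ag_KO library above every WT library.

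Of the members without KRAB whose HP1ag_KO libraries all lay above WT, the widest differences by the naming rule were those of Zfp125, Zfp488 and Zfp329. Zfp125 had 149, 173 and 254 in HP1ag_KO livers, against 69.4, 42.9 and 109.6 in WT livers, a difference of 1.43 ± 0.37 (limma adjusted p = 0.518, DESeq2 adjusted p = 0.0454). It is annotated as a transcribed pseudogene and overlaps 2 genes on its own strand, so its reads may be shared. Zfp488, which acts with Olig2 in oligodendrocytes, had 872, 1358 and 1194 in HP1ag_KO livers, against 610.1, 847 and 804 in WT livers, a difference of 0.59 ± 0.18 (limma adjusted p = 0.584). Zfp329 had 327, 371 and 322 in HP1ag_KO livers, against 213, 249 and 250.02 in WT livers, a difference of 0.52 ± 0.12 (limma adjusted p = 0.43). The differences of KRAB and other members came with summed erythroid markers that were lower in every HP1ag_KO library than in any WT library. Kupffer cell markers summed to 10807.5 to 15927 in HP1ag_KO livers, against 9908 to 11952 in WT livers. By mean, 7 of 7 Kupffer cell markers and 6 of 7 neutrophil markers were above WT, though both summed ranges overlapped those of WT livers. The part of these cells was not tested.

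The 3 members with every HP1ag_KO library below every WT library were Zfp91, Zfp106 and Zfp597. Zfp91, which is linked to ubiquitination of the kinase NIK, had 2904, 3155 and 3342 in HP1ag_KO livers, against 3905, 3977 and 3646 in WT livers, a difference of -0.30 ± 0.09 (limma adjusted p = 0.569). The RNA-binding Zfp106 had 2604, 2203 and 2531 in HP1ag_KO livers, against 3318, 2888 and 2611 in WT livers, a difference of -0.26 ± 0.11 (limma adjusted p = 0.656). Zfp597, the only KRAB member of the 3, differed by -0.19 ± 0.10 (limma adjusted p = 0.701). Of these members, Zfp445 (Gm47140), Zfp433 (Gm8249), Zfp84 (Mir1964) and Zfp91 (Cntf) also overlap another gene on their own strand. On the other strand, Zfp106 overlaps Gm26899, and Zfp597 overlaps Zfp174, Gm26675 and Naa60.

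**Figure D2:**
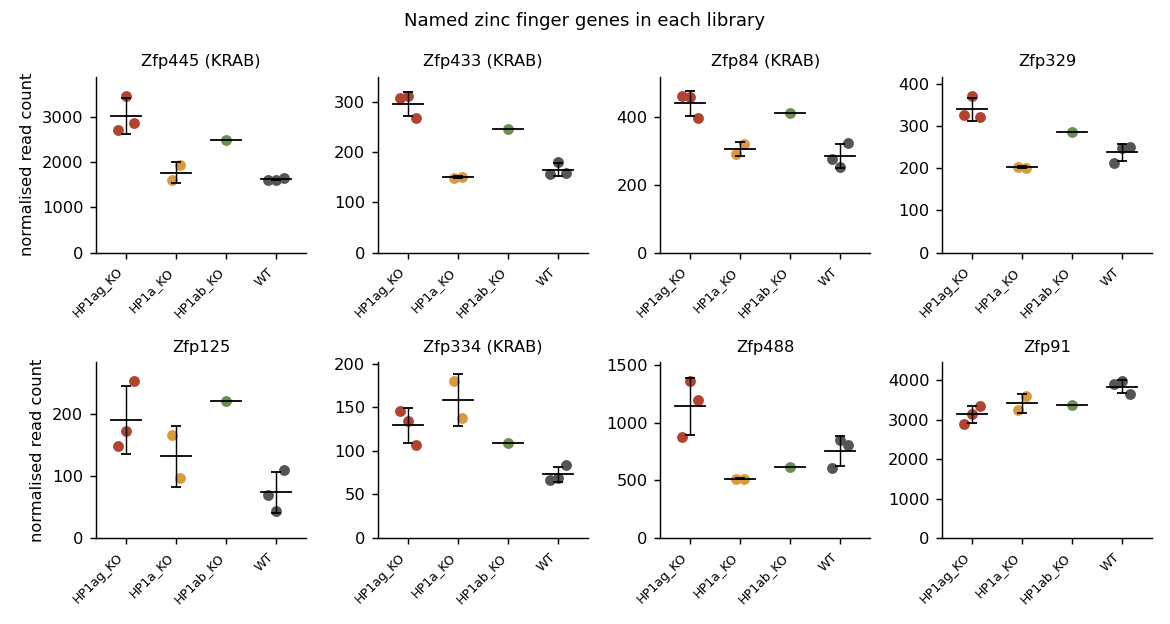
Normalised read count (y axis, from 0) of 8 named members in each library of HP1ag_KO, HP1a_KO, HP1ab_KO and WT livers (x axis). Points are libraries, wide lines means and bars SD, absent for the single HP1ab_KO library. Zfp445, Zfp433, Zfp84 and Zfp329 are higher in all 3 HP1ag_KO libraries and in the HP1ab_KO library than in any HP1a_KO or WT library, and Zfp334 is highest in the HP1a_KO libraries on average.

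KRAB members had a median above that of the other members in each range of level, with a limit for the lowest range. When the members were divided by mean level at 92.7 and 290.1 reads, the KRAB medians in HP1ag_KO against WT were 0.30 (37 members) in the lowest level range, 0.24 (33) in the middle one and 0.15 (18) in the highest one. Members without KRAB had 0.07 (20), 0.10 (23) and 0.07 (39). KRAB members without an overlapping gene on the other strand (68) had a median of 0.25, and those with one (20) had 0.19. Zfp457 and Zfp473 reach the mean required of a member only with the HP1ag_KO libraries. Both lie in the lowest level range, Zfp457 is among the 68 and Zfp473 among the 20. The medians of these 3 lists were not taken without them. The lowest-range median is therefore no separate support.

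In HP1a_KO livers against WT livers, where HP1α alone is missing, KRAB members were not mostly higher. Of 88 KRAB members, 37 (42.05%) were higher, with a median log2 difference of -0.08. Of the 82 others, 43 were higher, with a median of 0.01, which lay at -0.03 after scaling to equal totals and at -0.0002 for members with a mean of at least 50. The median over all genes was -0.00164. Averaged over KRAB members, the 2 HP1a_KO libraries lay at -0.12 and -0.16, against -0.16, -0.06 and -0.11 in WT libraries, and the groups overlapped.

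With limma and with edgeR, 0 members were called in HP1a_KO against WT, and each called 0% of all genes. DESeq2 called 1 of the 170 members, Zfp334, and gave 16 members no adjusted p. That share is near the 0.712% of all genes it called. At an unadjusted p under 0.05 from limma, 4 members were higher and 8 lower (2.35% and 4.71%), against 5.48% and 4.66% of all genes. The count of higher members was 9 without WT replicate 1 and 2 without HP1a_KO replicate 1, the library with the fewest reads. Members whose libraries all lay above WT numbered 21, and those below 27 (12.4% and 15.9%), against 14.7% and 15.1% of all genes. These shares are near or below those of all genes. The shares of all genes were taken only with every library in the fit. Member counts without a replicate are therefore not read as results about the members.

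Zfp334 had 179.8 and 138 in HP1a_KO livers, against 66.7, 68.6 and 83.3 in WT livers, a difference of 1.11 ± 0.21 (limma adjusted p = 0.397, DESeq2 adjusted p = 0.0161). Both HP1a_KO libraries lay above all 3 WT libraries. The next widest differences upward were those of the KRAB genes Zfp9 (0.91 ± 0.65), Zfp251 (0.62 ± 0.27) and Zfp189 (0.40 ± 0.19). Without KRAB they were Zfp395 (0.66 ± 0.36), Zfp366 (0.55 ± 0.32), Zfp593 (0.52 ± 0.17) and the second Zfp319 entry (0.36 ± 0.31). Zfp9 rested on 1 library, with 77.1 and 158 in HP1a_KO livers, against 70.3, 67.6 and 42.1 in WT livers. Its difference was 0.39 without HP1a_KO replicate 2.

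Downward, the KRAB genes Zfp40, Zfp442, Zfp101 and Zfp472 had the widest differences. Zfp40 had 49.5 and 47.3 in HP1a_KO livers, against 67.6, 92.4 and 98.3 in WT livers, a difference of -0.80 ± 0.29 (limma adjusted p = 0.457). Zfp442 had 42.2 and 38.7 in HP1a_KO livers, against 68.5, 70.5 and 73.0 in WT livers, a difference of -0.79 ± 0.28 (limma adjusted p = 0.457). Zfp101 differed by -0.67 ± 0.31 and Zfp472 by -0.45 ± 0.17. Without KRAB they were Zfp143 (-0.59 ± 0.27), a promoter-binding activator, Zfp488 (-0.54 ± 0.21), Zfp397 (-0.48 ± 0.14) and Zfp72 (-0.42 ± 0.23). None of these members was called by limma, edgeR or DESeq2. Kupffer, stellate and neutrophil markers were higher in HP1a_KO livers, and their part was not tested.

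In the HP1ab_KO liver, a single library, KRAB members were mostly higher than in WT livers. Of 88 KRAB members, 73 (83.0%) were higher, with a median log2 difference of 0.24, or 1.18-fold. Of the 82 others, 41 were higher, with a median of -0.01, which was 0.01 under TMM scaling and above 0 after scaling to equal totals. The median over all genes was -0.00338. The mean over KRAB members lay at 0.12, above all 3 WT libraries. This comparison has no replicate check, and the lone library is assumed to vary like the other groups.

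With limma and with edgeR, 0 members were called in HP1ab_KO against WT, and each called 0% of all genes. DESeq2 also called 0 members, where it called 0.0796% of genes. At an unadjusted p under 0.05 from limma, 5 members were higher and 1 lower (2.94% and 0.588%), against 2.05% and 1.65% of all genes. The 5 were Zfp125, Zfp445, Zfp433, Zfp84 and Zfp493, the last of them named after its values were seen. Without WT replicate 2 the count was 8. The HP1ab_KO library lay above every WT library for 69 members and below every one for 23 (40.6% and 13.5%), against 22.6% and 24.8% of all genes. Of the 69, 45 were KRAB members, or 51.1% of the KRAB members, and 24 were not, or 29.3% of the members without KRAB. Without WT replicate 2 the share of all genes was not taken, so the member count there is not read as a result.

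Zfp445 had 2489 in the HP1ab_KO liver, a difference of 0.62 ± 0.16 from WT. Zfp433 had 245 (0.57 ± 0.18) and Zfp84 had 414 (0.54 ± 0.18). All 3 values lay above the highest WT library. The widest differences upward by the naming rule were those of Zfp125 (1.67 ± 0.53), the KRAB gene Zfp39 (1.07 ± 0.59), the developmental regulator Zfp503 (1.003 ± 0.54) and the KRAB gene Zfp97 (0.94 ± 0.46). Zfp39 had 354 in the HP1ab_KO liver, against 243, 199 and 98.3 in WT livers. Downward they were the KRAB gene Zfp317 (-0.50 ± 0.24), Zfp259 (-0.46 ± 0.45), Zfp408 (-0.29 ± 0.29) and Zfp367 (-0.28 ± 0.18). In the HP1ab_KO liver the summed Kupffer cell and stellate cell markers were 16659 and 19159, above the WT ranges. Endothelial markers (6 of 6) summed to 11958 in the HP1ab_KO liver, against 10055 to 11578 in WT livers, and neutrophil markers to 121, against 31.1 to 46.7 in WT livers. The part of these cells was not tested.

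The direct comparison of HP1ag_KO livers with HP1a_KO livers, which both lack HP1α, addresses the added loss of HP1γ. KRAB members were higher in 74 of 88 (84.1%), with a median log2 difference of 0.28, or 1.21-fold. The 88 again include Zfp457 and Zfp473, which reach the mean required of a member only with the HP1ag_KO libraries. For KRAB members with a mean of at least 50, which leaves both out, the median was also 0.28. Of the 82 others, 46 were higher, with a median of 0.04. That median was 0.02 without HP1ag_KO replicate 2, 0.08 without HP1ag_KO replicate 3, 0.09 for members with a mean of at least 50 and 0.14 after scaling to equal totals. Over all genes 48.0% were higher, and the median was -0.02. Averaged over KRAB members, HP1ag_KO libraries lay at 0.10, 0.20 and 0.20, against -0.12 and -0.16 in HP1a_KO libraries, with no overlap. Summed erythroid markers were also lower, at 2736 to 4025 in HP1ag_KO livers, against 4367 to 5410.3 in HP1a_KO livers, and so were stellate markers, at 16092 to 17963, against 19233 to 20705 in HP1a_KO livers. Neutrophil markers were lower too, and the part of these cells was not tested.

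**Figure D3:**
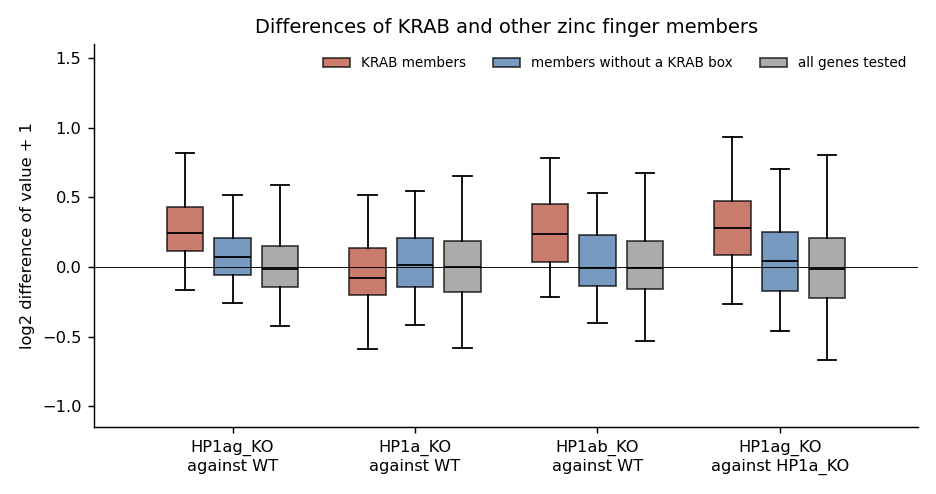
Log2 difference of value + 1 (y axis) for KRAB members, members without a KRAB box and all genes tested in the 4 comparisons (x axis). Boxes span the 25th to 75th percentiles with the median as a line, and whiskers run to the 5th and 95th. The KRAB medians are 0.24, -0.08, 0.24 and 0.28, while those of all genes lie within 0.02 of 0. The first 3 comparisons share the WT libraries, and the last uses the same HP1ag_KO and HP1a_KO libraries again.

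With limma and with edgeR, 0 members were called in HP1ag_KO against HP1a_KO, and each called 0% of all genes. DESeq2 called 7 of the 170 members: Zfp433, Zfp445, Zfp488, Zfp329, Zfp26, Zfp182 and Zfp397. That share is near the 3.37% of all genes it called, so the number of calls is not read as a result about the members. At an unadjusted p under 0.05 from limma, 35 members were higher and 2 lower (20.6% and 1.18%), against 7.8% and 8.38% of all genes. Of the 35, 24 were KRAB members, or 27.3% of the KRAB members, and 11 were not, or 13.4% of the members without KRAB. Without HP1a_KO replicate 1 the 35 became 17, and without HP1ag_KO replicate 2 they became 23. Every HP1ag_KO library lay above every HP1a_KO library for 59 members and below for 15 (34.7% and 8.82%), against 17.5% and 19.2% of all genes. Of the 59, 37 were KRAB members, or 42.0% of the KRAB members, and 22 were not, or 26.8% of the members without KRAB. The 37 include Zfp457, which reaches the mean required of a member only with the HP1ag_KO libraries. Counts without a replicate have no share of all genes beside them and are not read as results about the members.

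Zfp445 had 2725, 3474 and 2884 in HP1ag_KO livers, against 1604 and 1933 in HP1a_KO livers, a difference of 0.77 ± 0.13 (limma adjusted p = 0.127, DESeq2 adjusted p = 2.66e-04). Zfp433 had 149 and 151 in HP1a_KO livers, and its difference was 0.97 ± 0.14 (limma adjusted p = 0.127, DESeq2 adjusted p = 2.48e-04). In both genes the lowest HP1ag_KO library stood above the highest HP1a_KO library. Zfp26, a KRAB gene with 22 fingers, had 623, 799.7 and 696 in HP1ag_KO livers, against 462 and 498 in HP1a_KO livers, a difference of 0.55 ± 0.13 (limma adjusted p = 0.144, DESeq2 adjusted p = 0.0306). The X-linked KRAB gene Zfp182 had 191, 280.4 and 256 in HP1ag_KO livers, against 147 and 129 in HP1a_KO livers, a difference of 0.80 ± 0.22 (limma adjusted p = 0.157, DESeq2 adjusted p = 0.0489). The other KRAB genes with wide differences were Zfp442 (1.03 ± 0.28), Zfp458 (0.93 ± 0.39), Zfp101 (0.92 ± 0.31) and Zfp58 (0.88 ± 0.27). None of these 4 was called by DESeq2.

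Without KRAB, Zfp488 had 872, 1358 and 1194 in HP1ag_KO livers, against 508 and 514 in HP1a_KO livers, a difference of 1.13 ± 0.21 (limma adjusted p = 0.127, DESeq2 adjusted p = 2.91e-04). The WT libraries (610.1, 847 and 804) lay above both HP1a_KO libraries and below all 3 HP1ag_KO libraries. Zfp329 had 204 and 200.4 in HP1a_KO livers and differed by 0.75 ± 0.13 (limma adjusted p = 0.127, DESeq2 adjusted p = 0.00388). Zfp397 had 941, 1000.4 and 877 in HP1ag_KO livers, against 539 and 746 in HP1a_KO livers, a difference of 0.56 ± 0.14 (limma adjusted p = 0.154, DESeq2 adjusted p = 0.0431). Downward, Zfp106 had 2604, 2203 and 2531 in HP1ag_KO livers, against 3297 and 3538 in HP1a_KO livers, a difference of -0.49 ± 0.13 (limma adjusted p = 0.154). Zfp318, which governs IgD splicing in B cells, differed by -0.34 ± 0.10, and the others were the second Zfp319 entry (-0.49 ± 0.31), Zfp366 (-0.46 ± 0.32), Zfp36 (-0.36 ± 0.30), Zfp362 (-0.35 ± 0.28), Zfp319 (-0.35 ± 0.15) and Zfp212 (-0.35 ± 0.15). Of the 8, only Zfp212 has a KRAB box.

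Members lie in genomic clusters, defined here as members whose starts are within 500000 bases of the next. In GRCm38, 7 clusters hold at least 4 members, 50 in all, of which 43 are KRAB members. In HP1ag_KO against WT the median log2 difference was above 0 in each of the 7, between 0.08 and 0.37. In HP1ab_KO against WT it was also above 0 in each, between 0.02 and 0.44, and in HP1a_KO against WT it was below 0 in each, between -0.17 and -0.02. These 3 comparisons share the WT libraries.

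The cluster from Zfp455 to Zfp273 (chromosome 13, 67194506 to 67827002) holds 10 members, all KRAB, with medians of 0.35 in HP1ag_KO, 0.44 in HP1ab_KO and -0.02 in HP1a_KO against WT. One of the 10, Zfp457, passes the mean of 10 only with the HP1ag_KO libraries. The HP1ag_KO median of this cluster includes Zfp457 and was not taken without it. Its members differed among themselves, here with examples picked after their values were seen. In HP1ag_KO against WT, Zfp458 differed by 0.82 ± 0.35 and Zfp493 by 0.49 ± 0.22, while Zfp595 differed by 0.00673 ± 0.22 and Zfp429 by -0.26 ± 0.47. In the cluster from Zfp160 to Zfp229 (chromosome 17, 21008903 to 21769342) 6 of 6 KRAB members were higher in HP1ag_KO and in HP1ab_KO, with medians of 0.20 and 0.28, and 1 of 6 was higher in HP1a_KO, with a median of -0.16. Zfp52 there had 42.8, 43.7 and 45.4 in HP1ag_KO livers, 38.4 in the HP1ab_KO liver and 38.5 and 24.1 in HP1a_KO livers, against 29.4, 26.7 and 21.5 in WT livers. Zfp53 had 219.6, 211 and 168 in HP1ag_KO livers, 171 in the HP1ab_KO liver and 119 and 155 in HP1a_KO livers, against 139, 164 and 139.5 in WT livers. Zfp52 and Zfp53 were picked after their values were seen, and in both genes every HP1ag_KO library and the HP1ab_KO library lay above every WT library.

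The cluster from Zfp551 to Zfp446 (chromosome 7, 12415153 to 12985714), which holds Zfp329 and Zfp110, had medians of 0.37, 0.22 and -0.16 in HP1ag_KO, HP1ab_KO and HP1a_KO. The cluster from Zfp180 to Zfp428 (chromosome 7, 24081924 to 24515682; 10 members, 8 KRAB) had 0.26, 0.03 and -0.07. The cluster from Zfp84 to Zfp146 (chromosome 7, 29768552 to 30169750; 9 members, 6 KRAB) had 0.18, 0.02 and -0.05. The cluster from Zfp472 to Zfp414 on chromosome 17 (5 members) had 0.08, 0.25 and -0.17, and that from Zfp560 to Zfp266 on chromosome 9 (4 members), with Zfp26, had 0.26, 0.06 and -0.09. Reads of similar neighbours may be shared between copies, so levels of single cluster members are uncertain.

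**Figure D4:**
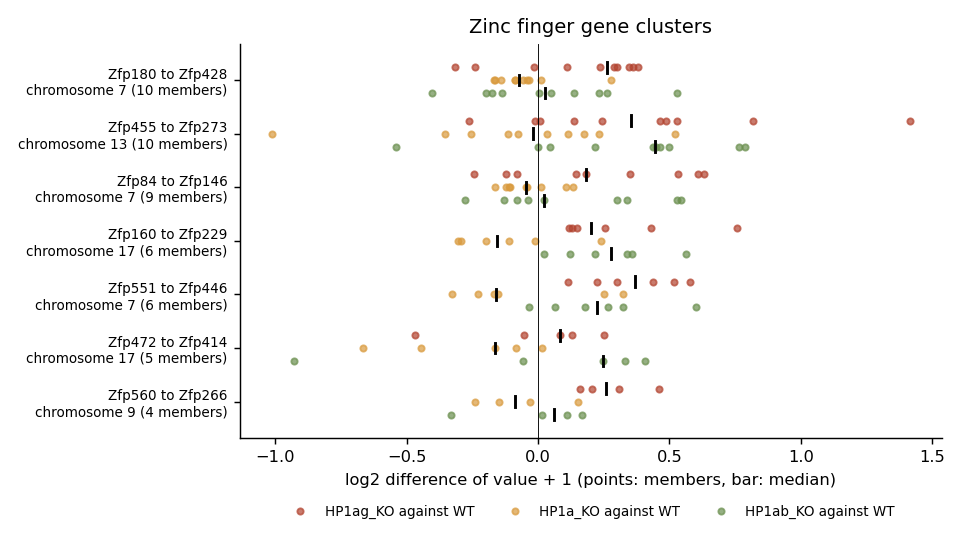
Log2 difference of value + 1 against WT (x axis) of each member of the 7 genomic clusters with at least 4 members (y axis), for HP1ag_KO, HP1a_KO and HP1ab_KO. Points are members and bars cluster medians. The HP1ag_KO medians lie between 0.08 and 0.37 and the HP1a_KO medians between -0.17 and -0.02.

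Among KRAB genes with known roles in imprinting and growth, Zfp445 is described above. Zfp568, which silences a placental Igf2 transcript in mouse embryos, had 1124, 922 and 935 in HP1ag_KO livers, 1092 in the HP1ab_KO liver and 993 and 984 in HP1a_KO livers, against 893, 903 and 1543 in WT livers. The WT libraries spanned the values of all other groups. Zfp57, the partner of Zfp445 at imprinted regions, lay just under the mean of 10.

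Sequence-specific regulators without KRAB had medians near 0. Of the 13 in the list that are members, 8 were higher in HP1ag_KO against WT, with a median log2 difference of 0.02. For HP1ab_KO the count was 8 with a median of 0.01, for HP1a_KO 9 with 0.06, and for HP1ag_KO against HP1a_KO 4 with -0.06. Zfp148 and Zfp281, which bind GC-rich promoters, had 1830.0 ± 246 and 1366 ± 232 in HP1ag_KO livers, against 2032 ± 120.2 and 1544 ± 161 in WT livers. Zfp410, an activator of the remodeller gene Chd4, had 587 ± 52.0 in HP1ag_KO livers, against 537 ± 35.4 in WT livers. Both groups overlapped for Zfp148, Zfp281 and Zfp410. The widest differences in HP1ag_KO and in HP1a_KO against WT were in low genes: Zfp521 had 25.5, 33.6 and 29.3 in HP1ag_KO livers, against 24.9, 13.3 and 19.7 in WT livers (0.62 ± 0.29), and Zfp423, a regulator of adipocyte precursors, had 16.5 and 14.6 in HP1a_KO livers, against 2.67, 13.3 and 10.3 in WT livers. Zfp423 passes the mean of 10 only with the HP1a_KO libraries, so its difference in HP1a_KO is no support. The HP1a_KO count and median of the regulators include it and were not taken without it. The remaining regulators are given as the log2 difference in HP1ag_KO against WT. They were Zfp143 (-0.05 ± 0.24), Zfp131 (0.03 ± 0.21), Zfp217 (-0.12 ± 0.25), Zfp335 (0.18 ± 0.20), Zfp384 (0.08 ± 0.14), Zfp462 (0.00361 ± 0.31), which works with H3K9 methyltransferases in mouse embryonic stem cells, and Zfp503 (0.41 ± 0.38).

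Members that act on RNA, translation or protein modification had small median differences. Of 10, 7 were higher in HP1ag_KO against WT with a median of 0.12, 4 in HP1ab_KO with -0.07, 6 in HP1a_KO with 0.06, and 6 in HP1ag_KO against HP1a_KO with 0.09. Zfp207, a spindle and kinetochore protein, had 2449.7, 2729 and 2562 in HP1ag_KO livers, against 1979.9, 2374 and 2356 in WT livers, a difference of 0.21 ± 0.11 with no overlap. Zfp598, the ubiquitin ligase of stalled ribosomes, had 931 ± 100.4 in HP1ag_KO livers, against 969 ± 85.2 in WT livers. Zfp36, or tristetraprolin, which destroys AU-rich mRNAs, had 727, 582 and 771 in HP1ag_KO livers, against 994, 660.0 and 444 in WT livers, so that the WT libraries spanned the HP1ag_KO ones. Zfp593, whose yeast counterpart helps export ribosomal subunits, had 130.3 and 135 in HP1a_KO livers, against 91.6, 99.04 and 87.1 in WT livers, a difference of 0.52 ± 0.17 (limma adjusted p = 0.452). In HP1ag_KO against WT the others were Zfp259 (0.17 ± 0.31), the splicing-linked Zfp326 (-0.00568 ± 0.20), the nucleolar Zfp330 (0.24 ± 0.19), Zfp346 (0.20 ± 0.15), which binds double-stranded RNA, and the SUMO ligase Zfp451 (0.07 ± 0.17).

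A list of genes of the KAP1 pathway, through which KRAB proteins act, had medians near or below 0. The table holds 30 entries of the list, 2 of them for Atf7ip. Of the 29 entries tested, 14 were higher in HP1ag_KO against WT, with a median of -0.00270. In HP1ab_KO the median was -0.14, with 10 higher, and in HP1a_KO it was -0.02, with 14 higher. At an unadjusted p under 0.05 from limma, 1 was higher and 3 lower in HP1ag_KO against WT: Trim24 (0.73) above, and the targeted Cbx3 (-0.79) and Cbx5 (-0.71) and the deacetylase gene Hdac2 (-0.26) below. That is 3.45% higher and 10.3% lower, against 3.84% and 3.74% of all genes. In HP1a_KO 1 was higher, Trim24 (0.55), and 2 lower, Cbx5 (-1.18) and Cbx1 (-0.62), or 3.45% and 6.90%, against 5.48% and 4.66% of all genes. In HP1ab_KO 0 were higher and 2 lower, Cbx5 (-0.87) and Cbx1 (-2.06), or 0% and 6.90%, against 2.05% and 1.65% of all genes. In HP1ag_KO against HP1a_KO, Cbx5 (0.46) was higher, and 3 were lower, Cbx3 (-0.76), Chd4 (-0.36) and Hdac1 (-0.44), or 10.3% lower, against 8.38% of all genes. The lower genes against WT were HP1 genes apart from Hdac2, and all of these but Cbx1 in HP1a_KO were targeted in that knockout. None of these was called by limma or edgeR. DESeq2 called Cbx3 (adjusted p = 6.05e-05) and Cbx5 (0.0297) in HP1ag_KO, Cbx5 (9.54e-05) in HP1a_KO and Cbx1 (5.34e-07) in HP1ab_KO against WT. It also called Cbx3 (DESeq2 adjusted p = 0.00128) in HP1ag_KO against HP1a_KO. Trim28, which encodes KAP1, had 1789 ± 233 in HP1ag_KO livers, 1687 in the HP1ab_KO liver and 1939 ± 130.1 in HP1a_KO livers, against 1695 ± 137 in WT livers. Setdb1 had 1060.0 ± 143 in HP1ag_KO livers, 862 in the HP1ab_KO liver and 862 ± 40.6 in HP1a_KO livers, against 1034 ± 123 in WT livers.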

How the data were processed

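Whole-liver RNA without ribosomal RNA went into strand-specific libraries, per the labels' protocols. Aligner and counter names come from the submitters' processing notes: TopHat2 2.0.10, Bowtie2 2.1.0 and HTSeq 0.5.4p3, beside DESeq2 1.0.19, CASAVA 1.8.2 and the build mm10. Neither the annotation release nor the strandedness used in counting is given in the sources used, so genes that overlap or are near-identical may share reads. The deposited signal is a normalised read count per gene and library: with a tolerance of 0.1 read, 100% of the authors' values were whole reads divided by 1 size factor per library. No library was a copy of another in its group (a chi-square of 52.9 to 136 per degree of freedom for pairs of replicates). Libraries of different groups were not compared in this way, so the single HP1ab_KO library was not checked.

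The test, run in R 4.3.3, was that of limma 3.58.1 on log2(value + 1) with a mean trend, over 13845 genes with a mean of at least 10. The 4 groups shared 1 fit, with 5 residual degrees of freedom and 3.13 prior ones, and adjustment was by Benjamini-Hochberg over all genes tested. edgeR 4.0.16 (quasi-likelihood) and DESeq2 1.42.0 were run on the recovered reads, and the tests were tested on simulated data. No list of members was tested as a set: lists are described by counts and medians.

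A KRAB box was called where a profile of 40 residues (pyhmmer 0.12.3, built from 54 pattern matches) matched the first 250 residues of a translated GENCODE transcript of GRCm38 with an E-value under 0.0001. This split and its profile were added after the data were seen, in place of RefSeq proteins, which were not used here. Of the table's genes, 22257 (98.0%) had an identifier in GENCODE; the second Zfp319 entry did not. The genes named were, per comparison, up to 8 members per direction (4 for HP1ab_KO) with the widest difference among those with no overlap between the groups and with a mean of 50 or more in the higher one. Added to these were fixed role lists, the 6 highest members by level and per kilobase, members next to the level limit, and members called by any tool. Of the KAP1 pathway list, the genes at an unadjusted p under 0.05 were named, except 1 that is not reported here. The members and lists were chosen with earlier results of these data known. Python 3.11.15 with numpy 2.4.6, pandas 2.3.3, Biopython 1.88 and matplotlib 3.10.9 did the rest.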

Additional observations from a re-analysis of the deposited data

How the results depend on the processing

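The KRAB median stayed above 0 in HP1ag_KO and HP1ab_KO against WT and in HP1ag_KO against HP1a_KO, and below 0 in HP1a_KO against WT, under every alternative run: pseudocount, filter, scaling, trend, samples in the fit, count tests, KRAB pattern, overlapping genes, left-out replicates and, for HP1ag_KO against WT alone, animal numbers. Scaling to equal totals moved several values. In HP1ag_KO against WT the median was 0.20 over members and 0.13 without KRAB. There 29 members were higher at an unadjusted p under 0.05 from limma. In HP1a_KO against WT the medians were -0.0709 and -0.0295 in that order, and 2 members were higher at that p. In HP1ag_KO against HP1a_KO the medians were 0.28 and 0.14, and 0.37 for KRAB members. With a mean of at least 50, the members' median in HP1a_KO was -0.0684, and that without KRAB in HP1ag_KO against HP1a_KO was 0.0902. Without the trend, 8 members passed an unadjusted p under 0.05 upward in HP1a_KO and 8 in HP1ab_KO, and 3 in HP1ab_KO with only the groups compared. DESeq2 called 4 members for HP1ag_KO, 1 for HP1a_KO and 0 for HP1ab_KO against WT, and 7 between HP1ag_KO and HP1a_KO, where limma called 0. The cause of these moves was not tested. For DESeq2 the share of all genes is given with each comparison above. It was not taken under equal totals, without the trend or with only the groups compared. The member counts under those 3 settings are therefore not read as results about the members.

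Leaving out 1 replicate at a time gave, for KRAB members, medians of 0.21 to 0.30 for HP1ag_KO, -0.10 to -0.05 for HP1a_KO and 0.19 to 0.25 for HP1ab_KO against WT, and 0.25 to 0.34 between HP1ag_KO and HP1a_KO. Over members they were 0.15 to 0.16, -0.05 to -0.02, 0.12 to 0.14 and 0.16 to 0.22 in the same order of comparisons. Without KRAB they were 0.0584 to 0.12, 0.0109 to 0.0405, 0.0003 to 0.0336 and 0.0218 to 0.0829. Members at an unadjusted p under 0.05 upward numbered 13 to 22, 2 to 9, 6 to 8 and 17 to 34 in that order of comparisons. limma called 0 members in each. Where a replicate left 1 library in a group, that library was assumed to vary like the others. The share of all genes at that p was not taken in the fits without a replicate. Their member counts are therefore not read as results about the members.

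The main fit was not paired, because the labels state no pairing and give no replicate numbers shared between groups. The titles hold animal numbers. With a term for neighbouring ones, which is no stated pairing, the KRAB median in HP1ag_KO against WT was 0.25. With that term 16 members were higher at an unadjusted p under 0.05 from limma. The share of all genes was not taken with it, so this count is not read as a result about the members. The planned looser KRAB pattern was not run; the pattern alone, added later, called 54 members.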

Other observations

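Among the 23 numbered zinc finger genes under the mean of 10, Zfp345 was picked after its values were seen. It had 12.8, 17.9 and 28.4 normalised reads in HP1ag_KO livers, 2.40 in the HP1ab_KO liver and 3.67 and 2.58 in HP1a_KO livers, against 3.56, 3.81 and 1.87 in WT livers. All 3 HP1ag_KO libraries lay above the other 6 libraries. The gene was outside the fit, so this was not tested.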
